A study of Mus musculus with 4 samples.

Results

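The cells described here are chondrogenic sclerotome-type mesenchyme, 1025 of the 44168 cells kept by the quality filters. These asked for 2000 or more unique molecular identifiers (UMIs), 1000 or more genes with a UMI, and a mitochondrial share below 25% of UMIs. Members were chosen by the measured UMIs of marker genes: a cell was a member when at least 3 of the 6 genes Col2a1, Col9a1, Col11a1, Col25a1, Sox9 and Pax1 were detected and their UMIs summed to at least 10 per 10000 UMIs of the cell. Cells with at least 3 of the 6 endothelial genes Cdh5, Pecam1, Tie1, Egfl7, Kdr and Esam, or at least 3 of the 4 neuronal genes Elavl3, Elavl4, Stmn2 and Tubb3, were left out. Because measured expression chose the members, the levels of these 16 genes, and of all genes in members against other cells, are given as descriptions with no test.

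The aorta-gonad-mesonephros (AGM) is the region of the embryo where the first haematopoietic stem cells form, and the study sorted its CD31+ cells from E11.5 C57BL/6J mice to ask which transcripts accompany differences in mitochondrial activity. The sort used TMRM, a dye that enters mitochondria according to their membrane potential, and the weakly stained cells are called MMPlow and the strongly stained MMPhigh. Each fraction has 2 libraries, prepared by the 10x Genomics 3′ v3 chemistry. The labels name no transgene or treatment. Pecam1, the gene of CD31 and one of the genes used to leave cells out, stood at 40.2 and 38.6 CPM in MMPlow 1 and 2 and 1.83 and 2.59 CPM in MMPhigh 1 and 2 in members, where 1 UMI in 10000 is 100 CPM, against 281, 265, 25.8 and 22.7 CPM in the other filtered cells of the same 4 libraries. How these cells entered a CD31+ sort was not tested. The labels do not say whether the 2 libraries of a fraction came from separate embryos or sorts, so a p-value here measures the spread between these libraries, which may be technical.

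The sclerotome is the ventral part of the somite, the segmented block of embryonic mesoderm, and gives rise to the vertebrae and ribs. Hedgehog signals from the notochord and floor plate switch on Pax1 and Pax9 in it, and Sox9 with its partners Sox5 and Sox6 then drives the cartilage collagens of types II, IX and XI. BMP signals promote this step, whereas Wnt signals from the dorsal side favour other somite fates.

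The libraries differed in depth. Members had median totals of 4148 and 4545 UMIs in the MMPlow libraries, against 18575 and 22186.5 UMIs in the MMPhigh libraries. Their summed UMIs came to between 1640331 and 3091554 per library. No member's barcode sequence was a member in a second library, although 7 to 89 sequences of filtered cells recurred between pairs of libraries. The rule left room for some endothelial UMIs: 68.3% and 68.6% of them in MMPlow 1 and 2 had a UMI of at least 1 of the 6 endothelial genes, against 17.2% and 29.4% in MMPhigh 1 and 2. With every cell thinned to 2000 UMIs these shares were 42.4%, 40.6%, 3.23% and 2.94%. In MMPlow 1 and 2, 59 and 74 members had at least 2 of 6 macrophage genes, and in MMPhigh 1 and 2, 7 and 16 had.

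The genes of the rule were present in all 4 libraries. Levels are given as CPM of the UMIs summed over the members of a library. Col2a1, the chain of type II collagen on chromosome 15 (97975602 to 98004695, GRCm38), stood at 534 and 483 CPM in MMPlow 1 and 2 and 330.4 and 328 CPM in MMPhigh 1 and 2. Col9a1, a type IX collagen chain on chromosome 1 (24177610 to 24252684), stood at 279.9 and 307 CPM in MMPlow 1 and 2 and 162 and 184 CPM in MMPhigh 1 and 2. Col11a1, a type XI chain on chromosome 3 (114030540 to 114220718), stood at 410.1 and 424 CPM in MMPlow 1 and 2 and 235 and 288 CPM in MMPhigh 1 and 2. For these 3 collagens both MMPhigh libraries lay below both MMPlow libraries. Sox9, the master regulator of chondrogenesis on chromosome 11 (112782224 to 112787760), stood at 327 and 319.6 CPM in MMPlow 1 and 2 and 312 and 288 CPM in MMPhigh 1 and 2. Pax1, on chromosome 2 (147361925 to 147393295), stood at 92.5 and 107 CPM in MMPlow 1 and 2 and 73.8 and 87.01 CPM in MMPhigh 1 and 2. Both factors were also lower in both MMPhigh libraries, by smaller margins. Col25a1, a transmembrane collagen on chromosome 3 (130131501 to 130599877), stood at 704 and 656 CPM in MMPlow 1 and 2 and 1028 and 819 CPM in MMPhigh 1 and 2 and was the one gene of the rule higher in both MMPhigh libraries. In the other filtered cells the means of the 4 libraries were 16.4 CPM for Col2a1, 7.93 for Col9a1, 26.4 for Col11a1, 45.4 for Col25a1, 16.3 for Sox9 and 3.13 for Pax1.

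**Figure D1:**
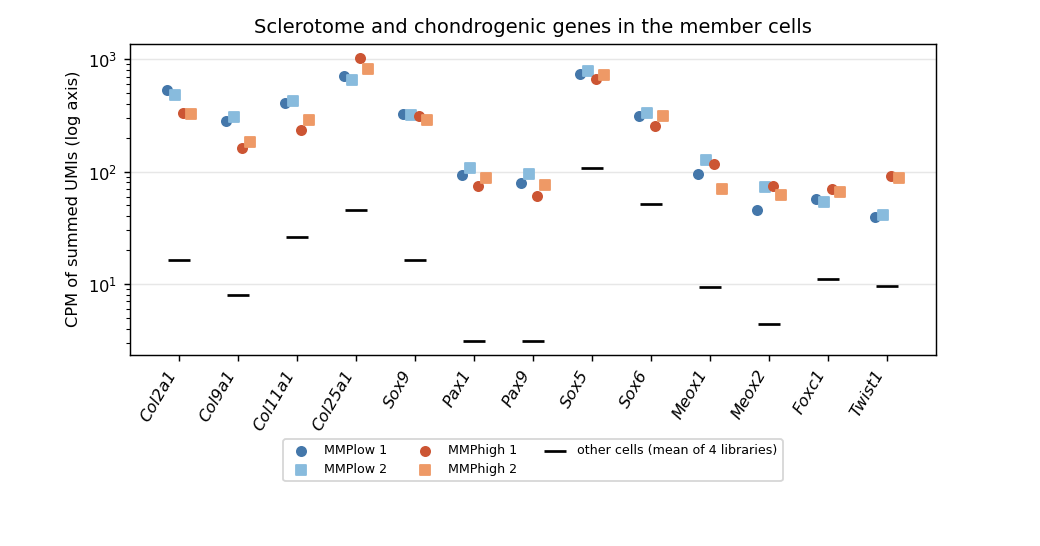
Levels of 13 sclerotome and chondrogenic genes in member cells (vertical axis, CPM of summed UMIs, log axis), with 1 point per library and a bar for the mean of all other filtered cells over the 4 libraries. Col2a1, Col9a1 and Col11a1 lie lower in both MMPhigh libraries, Twist1 lies higher, and all 13 genes lie above the bar; the first 6 genes belong to the selection rule.

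All 4 label markers, Col2a1, Col9a1, Col11a1 and Sox9, were thus present, while markers of mature cartilage were low or at 0. Matn1, a cartilage matrilin, and Snorc, a chondrocyte proteoglycan, had no UMI in any member. Acan, the main cartilage proteoglycan, stood at 11.6 and 3.99 CPM in MMPlow 1 and 2 and 3.66 and 2.91 CPM in MMPhigh 1 and 2. Comp, a matrix protein of older cartilage, had UMIs in MMPlow 2 alone, at 0.886 CPM. A sclerotome marker was low too: Nkx3-2, a repressor downstream of Pax1, had 6, 4, 2 and 3 UMIs in the 4 libraries. It stood at 3.65 and 1.77 CPM in MMPlow 1 and 2 and 1.22 and 0.970 CPM in MMPhigh 1 and 2. The notochord gene Noto and the neural progenitor gene Olig2 were at 0 in every library, but other genes of their lists were not. In MMPlow 1, MMPlow 2, MMPhigh 1 and MMPhigh 2, the 9 notochord genes summed to 143, 160, 241 and 237 CPM in members. Their sums in other cells were 84.1, 81.6, 205 and 239 CPM. The 10 neural progenitor genes summed to 80.3, 93.5, 120 and 110 CPM in members and to 128, 138, 215 and 198 CPM in other cells.

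How many marker genes a member showed followed depth. Members with 5 or 6 of the 6 genes made up 16.0% and 2.20% of MMPlow 1, 22.4% and 2.77% of MMPlow 2, 34.4% and 10.8% of MMPhigh 1, and 42.6% and 13.2% of MMPhigh 2. The median marker sum went the other way, at 22.2 and 21.3 per 10000 UMIs in the MMPlow libraries against 16.6 and 17.9 in the MMPhigh libraries. Just inside the threshold, with sums of 10 to 12, lay 40, 44, 13 and 25 members of MMPlow 1, MMPlow 2, MMPhigh 1 and MMPhigh 2, and just outside, with sums of 8 to 10, lay 29, 36, 13 and 21 cells. After thinning to 2000 UMIs, Col2a1 was detected in 64.2% and 62.1% of MMPlow members and in 50.5% and 51.5% of MMPhigh members, while without thinning the shares were 84.0%, 85.7%, 84.9% and 89.0%. Thinned endothelial cells without any gene of the rule gave 0% by construction, at median depths of 3391 to 41938.5 UMIs.

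Other genes that set the members apart from the rest of their libraries include matrix, BMP and guidance genes. Vcan, the proteoglycan versican of early mesenchymal condensations, stood at 974, 1022, 971 and 967 CPM in members of MMPlow 1, MMPlow 2, MMPhigh 1 and MMPhigh 2, against 79.9 to 126 CPM in other cells. Bmpr1b, a BMP receptor of prechondrogenic mesenchyme, stood at 396, 451, 469 and 477 CPM, against 36.9 to 56.2. Vcan differed little among the 4 libraries, and Bmpr1b was lowest in MMPlow 1. Bmp5, a BMP ligand of forming cartilage, stood at 110.1, 152, 115 and 100.3 CPM, against 6.12 to 8.83. Pax9, the partner of Pax1, stood at 79.1, 95.7, 61.0 and 76.0 CPM, against 2.46 to 3.62, and fibroblastic mesenchyme, a comparison set of 1821 other cells of these libraries, had a mean of 11.9 CPM. Gpc3, Sema5a, Tenm3, Unc5c, Cdh11, Ddr2, Pdgfra, Foxp2 and Sox5 also stood among the 30 leading genes. Several of these were shared with fibroblastic mesenchyme, where Cdh11 had a mean of 649.6 CPM against 647 in members. Pdgfra had means of 219 CPM there and 178 in members, but it is one of the genes that chose that set. For Gpc3 the means were 2048 against 2331 CPM, for Unc5c 549.9 against 581, and for Ddr2 152 against 162. Bmpr1b had means of 332 CPM in neural progenitors, 227 in muscle progenitors (151 cells) and 175 in fibroblastic mesenchyme, against 448 in members. Vcan had means of 494 CPM in fibroblastic mesenchyme and 211 in muscle progenitors, against 984 in members.

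Members made up a like share of 3 libraries and a larger share of the other. They were 363 of 16700 filtered cells in MMPlow 1 (2.17%, exact 95% interval 1.96% to 2.41%), 433 of 19579 in MMPlow 2 (2.21%, 2.01% to 2.43%), 93 of 4403 in MMPhigh 1 (2.11%, 1.71% to 2.58%) and 136 of 3486 in MMPhigh 2 (3.90%, 3.28% to 4.60%); the intervals cover counting error only. The means were 2.19% ± 0.0268 in MMPlow and 3.01% ± 1.27 in MMPhigh (SD, n = 2), a difference of 0.814 percentage points with a two-sided exact permutation p of 1; 2 libraries against 2 can give no less than 0.3333. The difference turned to -0.0740 points when the whole rule, with its exclusions, was applied to thinned cells. It was -1.70 points as a share of cells that were not endothelial, and -0.0804 points without MMPhigh 2. At a marker sum of at least 5 per 10000 UMIs it was 1.88 points.

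Gene levels in members were then compared between the fractions, on UMIs summed per library, with edgeR's quasi-likelihood test. A gene is called changed at an adjusted p under 0.05, and folds are log2 of MMPhigh over MMPlow. Of 11517 genes tested, 1018 were called (8.84%), 418 higher (3.63%) and 600 lower (5.21%) in MMPhigh, and groups did not overlap for 51.0% of all tested genes. Counts for the gene lists below are to be read beside these shares. Genes named for the size of their fold had to have groups that did not overlap, so non-overlap gives them no further support. Of the called genes, 10 belong to the rule and support nothing here. Without MMPlow 1 the test called 369 genes and without MMPlow 2 it called 423. Thinning each member to 2000 UMIs before summing left 54 higher and 130 lower.

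The lower genes included markers of endothelium, blood and macrophages. Of the 600 lower genes, 483 (80.5%) stood below the level of the other cells in both MMPlow libraries, against 99 of the 418 higher genes (23.7%) and 39.5% of all tested genes. Emcn, an endothelial sialomucin, stood at 73.6 and 62.9 CPM in MMPlow 1 and 2 and 4.27 and 2.59 CPM in MMPhigh 1 and 2 in members (log2 fold -4.38, SE 0.28, edgeR adjusted p = 1.45e-08), and at 563, 594, 6.02 and 4.28 CPM in the other cells of the same 4 libraries. Pf4, the platelet chemokine, stood at 372 and 317 CPM in MMPlow 1 and 2 and 10.4 and 10.998 CPM in MMPhigh 1 and 2 (log2 fold -4.98, SE 0.18, edgeR adjusted p = 4.31e-12), with 734, 881, 443 and 396 CPM in other cells. In both genes the MMPlow members lay far above the MMPhigh members. The granulocyte gene S100a8 had 280 UMIs in MMPlow members and 2 in MMPhigh members, a ratio of 169.9 after scaling to depth (exact 95% counting interval 46.6 to 1409.7).

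All 6 tested endothelial markers outside the rule fell, and these 6 genes summed to 225 and 194 CPM in MMPlow members and to 19.5 and 20.7 CPM in MMPhigh members, beside 1322.7, 1322.8, 30.7 and 20.98 CPM in the other cells. The rule left out cells by other genes of the same cell type. Erg was not called with the rule applied to thinned cells (log2 fold -1.10), where Emcn, Tek, Cldn5 and Plvap kept their call. Of 12 macrophage and haematopoietic genes 7 fell, with sums of 517, 440.1, 63.4 and 219.95 CPM in members, but the other cells held more of them in MMPhigh, at 1010.2 and 1151 CPM in the MMPlow and 3002 and 2847 CPM in the MMPhigh libraries. In that list C1qa, C1qb, C1qc, Csf1r and Fcer1g were not called. Among the lower haematopoietic genes, Tyrobp lost its call in 10 of 20 alternative settings, Cx3cr1 and Laptm5 in 7 each and Ptprc in 6. For each of them this included the settings without MMPlow 1 and without MMPlow 2. Coro1a and Lyz2 lost theirs in 1 of 20, Spi1 in 1 of 19 and Mrc1 in 2 of 20. Of 8 tested erythroid genes 6 fell, with sums of 179, 100.2, 18.3 and 23.6 CPM in members and of 1476, 1185, 1652 and 639 CPM in other cells. The sums in other cells thus fell with those in members for the endothelial list, but not for the macrophage list, and MMPhigh 1 had the highest erythroid sum. Cdh5 was at 0 in MMPhigh 1 and Sox17 in MMPhigh 2. The part of carried-over RNA, or of cells joined in 1 droplet, in the fall of these genes was not tested, and without members that had any endothelial gene of the rule 290 genes were called lower and 176 higher.

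**Figure D2:**
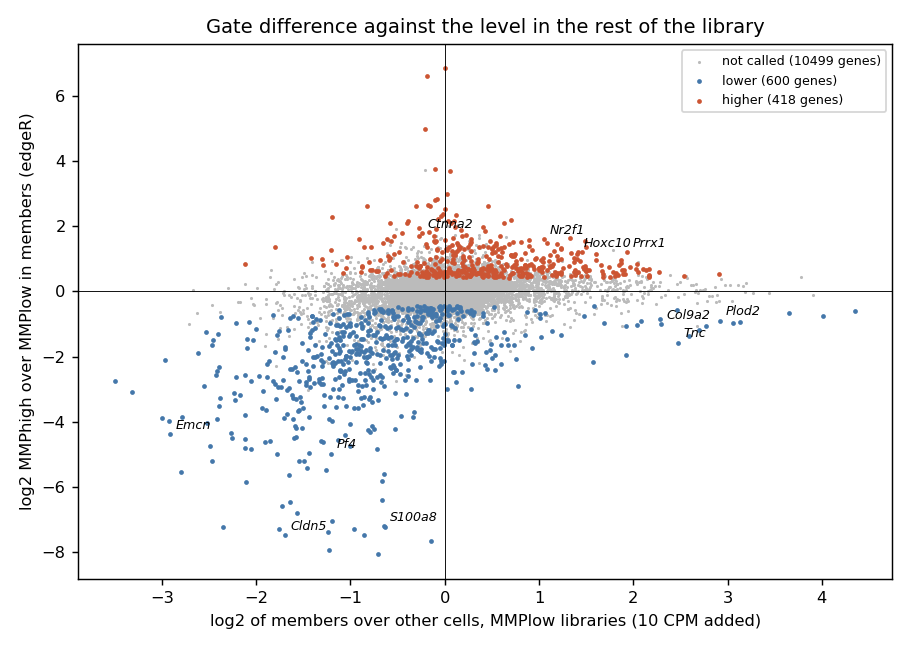
Each point is 1 of 11517 tested genes, placed by log2 of its level in MMPlow members over the other cells of those libraries (horizontal, 10 CPM added) and by its log2 MMPhigh over MMPlow in members (vertical); blue marks the 600 lower genes, red the 418 higher and grey the rest. Most blue points lie left of 0, where the other cells hold more of the transcript, with Col9a2, Tnc and Plod2 among those on the right.

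Of 6 tested chondrogenic factors none was called by edgeR; Sox5 stood at 737 and 789.9 CPM in MMPlow 1 and 2 and 666 and 719.7 CPM in MMPhigh 1 and 2 and Sox6 at 309 and 332 CPM in MMPlow 1 and 2 and 254 and 310.2 CPM in MMPhigh 1 and 2. Trps1, Zbtb20, Runx2 and Pkdcc were the others. The groups overlapped for Sox6, and the log2 folds of Sox5 and Sox6 were -0.13 and -0.17 with SE 0.13 each. Of 13 tested sclerotome factors 3 rose and none fell, with a list median of 0.30 against 0.00 over all tested genes. Twist1, a mesenchymal factor, stood at 39.6 and 40.8 CPM in MMPlow 1 and 2 and 90.8 and 87.98 CPM in MMPhigh 1 and 2 (log2 fold 1.16, SE 0.16, edgeR adjusted p = 0.000109), kept its call under all 20 alternative settings, and both MMPhigh libraries lay above both MMPlow libraries. Zic1 (log2 fold 0.60) and Gli3 (0.59) also rose, and each lost its call without either MMPlow library. Uncx, which marks the caudal half-somite, stood at 88.8 and 99.7 CPM in MMPlow 1 and 2 and 63.4 and 31.7 CPM in MMPhigh 1 and 2, and Tcf15, a factor of the somite epithelium, at 68.8 and 94.4 CPM in MMPlow 1 and 2 and 61.6 and 14.6 CPM in MMPhigh 1 and 2; neither was called, and MMPhigh 2 was the lowest library for both.

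Among cartilage matrix genes outside the rule, 6 of 16 passed the filter on low counts, and 3 of these fell and none rose. The other chains of type IX collagen are Col9a2 and Col9a3, and the former stood at 48.7 and 50.97 CPM in MMPlow 1 and 2 and 25.6 and 24.3 CPM in MMPhigh 1 and 2 (log2 fold -1.001, SE 0.19, edgeR adjusted p = 0.00192). The latter stood at 38.3 and 35.9 CPM in MMPlow 1 and 2 and 21.3 and 15.8 CPM in MMPhigh 1 and 2 (log2 fold -1.03, SE 0.23, edgeR adjusted p = 0.00711). Hapln1, the link protein that ties aggrecan to hyaluronan, stood at 27.99 and 39.01 CPM in MMPlow 1 and 2 and 17.1 and 13.9 CPM in MMPhigh 1 and 2 (log2 fold -1.15, SE 0.25, edgeR adjusted p = 0.00605). In all 3 genes both MMPhigh libraries lay below both MMPlow libraries. After thinning, Hapln1 was detected in 6.61% and 8.08% of MMPlow members and in 2.15% and 2.94% of MMPhigh members. In thinned endothelial cells without any gene of the rule the shares were 31.9% and 33.5% in MMPlow and 6.67% and 1.37% in MMPhigh. Hapln1 and Col9a2 lost their call without members that had an endothelial gene, and Col9a3 kept it. Over the 20 alternative settings, however, Col9a3 lost its call in 7 and Col9a2 in 6. For both genes these include DESeq2 and a marker sum of at least 20 per 10000 UMIs. The part of endothelial RNA in the fall of Hapln1 was not tested. Fibin, a secreted protein, was not called at 164 and 185 CPM in MMPlow 1 and 2 and 194 and 153 CPM in MMPhigh 1 and 2. With the rule applied to thinned cells the 3 genes were no longer called, at log2 folds of -0.96, -0.96 and -0.51, and the same holds without MMPlow 2. The lower marker sum and the greater depth of MMPhigh members, given above, move with this difference, and their part in it was not tested.

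Other collagens moved in both directions, with 3 higher and 4 lower of 15 tested. Col23a1, a transmembrane collagen, stood at 105 and 105 CPM in MMPlow 1 and 2 and 238 and 379.7 CPM in MMPhigh 1 and 2 (log2 fold 1.58, SE 0.20, edgeR adjusted p = 0.000889) and kept its call under all 20 settings. Col1a2 (142 and 147 against 242 and 264 CPM, log2 fold 0.82) and Col26a1 (108 and 110.4 against 199 and 227 CPM, 0.98) rose as well. Col1a1, the partner chain of Col1a2 in type I collagen, was not called, at 119 and 112 against 104 and 128 CPM. Col14a1 and Col12a1, collagens that sit on fibril surfaces, fell by 0.97 and 0.91 on the log2 scale, from 144.8 and 137 to 82.9 and 63.1 CPM and from 90.7 and 92.6 to 46.9 and 49.8 CPM. Both lost their call with the rule applied to thinned cells. Col4a1 and Col4a2, basement membrane chains that endothelium makes in quantity, fell by 0.82 and 0.75 and were not called without members that had an endothelial gene.

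Of 28 genes for collagen and proteoglycan processing, 27 were not called. The exception was Plod2, the lysyl hydroxylase of collagen telopeptides, at 266 and 290.3 CPM in MMPlow 1 and 2 and 135 and 159.8 CPM in MMPhigh 1 and 2 (log2 fold -0.90, SE 0.13, edgeR adjusted p = 0.000191). The call was lost without members that had an endothelial gene, and the log2 fold lay between -1.06 and -0.54 over the settings. Serpinh1, the collagen chaperone, was not called at 349 and 360.4 against 393 and 437 CPM, nor was P4hb at 204 and 217 against 227 and 202 CPM. Tnc, the matrix protein tenascin-C of condensing cartilage and tendon, stood at 82.8 and 94.4 CPM in MMPlow 1 and 2 and 24.995 and 32.7 CPM in MMPhigh 1 and 2 (log2 fold -1.58, SE 0.18, edgeR adjusted p = 1.11e-05), and its groups lay well apart. With the rule applied to thinned cells its log2 fold was -1.24, and edgeR gave it an adjusted p of 0.0772.

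**Figure D3:**
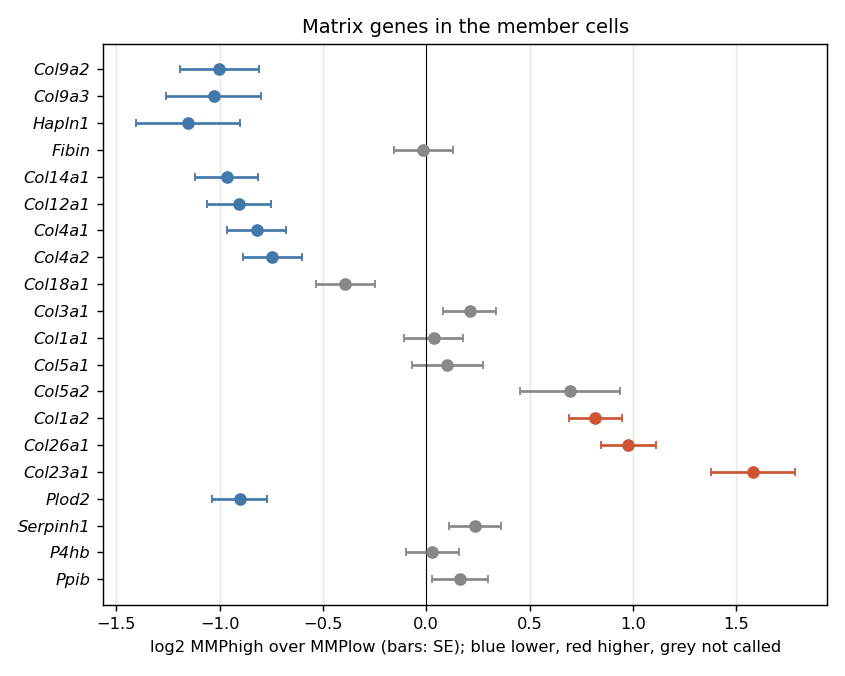
Log2 MMPhigh over MMPlow in member cells for 20 matrix and collagen-processing genes chosen after their values were seen (horizontal axis; points are edgeR estimates, bars their SE). Col9a2, Col9a3, Hapln1, Col14a1, Col12a1 and Plod2 lie near -1, Col23a1 near 1.6, and most processing genes near 0.

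Of 12 tested Hedgehog genes 4 rose and none fell, with a list median of 0.31. The co-receptors Gas1 (53.5 and 67.4 against 132 and 99.9 CPM, log2 fold 0.91) and Cdon (62.7 and 68.7 against 103 and 119.7 CPM, 0.77) rose, as did the transcription factors Gli2 (0.47) and Gli3 (0.59). Ptch1, the receptor and a direct target, stood at 218 and 228 against 243 and 219.6 CPM, and Gli1, another target, at 24.3 and 20.4 against 15.2 and 14.6 CPM. Neither was called, and the ligand Ihh was at 0 in every library. All 4 calls were lost without MMPlow 1.

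Of 23 tested Wnt genes 8 rose and none fell, with a list median of 0.45. Ror1, a receptor for Wnt5a, stood at 274 and 218 CPM in MMPlow 1 and 2 and 412 and 484 CPM in MMPhigh 1 and 2 (log2 fold 0.88, SE 0.14, edgeR adjusted p = 0.000423). Ror2, the related receptor, stood at 137 and 183 CPM in MMPlow 1 and 2 and 233 and 280.4 CPM in MMPhigh 1 and 2 (log2 fold 0.69, SE 0.15, edgeR adjusted p = 0.00617). Rspo3, a secreted enhancer of Wnt signalling, stood at 51.1 and 52.3 CPM in MMPlow 1 and 2 and 93.3 and 122 CPM in MMPhigh 1 and 2 (log2 fold 1.08, SE 0.16, edgeR adjusted p = 0.000246). Both MMPhigh libraries lay above both MMPlow libraries in all 3. Tcf7l2, Lef1, Wnt5b, Dkk2 and Nkd1 rose by log2 folds of 0.64, 0.59, 0.58, 0.996 and 1.06. Axin2, a general target of the pathway, was not called at 18.9 and 14.2 against 23.2 and 26.5 CPM. All 8 lost their call with the rule applied to thinned cells, where the log2 folds of Ror1, Ror2 and Rspo3 were 0.55, 0.40 and 1.08.

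In the BMP and TGF-beta list 3 of 26 tested genes rose and 2 fell, and in the FGF list none of 12 was called. Bmper, a secreted BMP modulator among the leading genes of the members, fell from 186 and 159 CPM to 83.5 and 92.2 CPM (log2 fold -0.95, SE 0.14, edgeR adjusted p = 0.000189), with no overlap. It was not called with the rule applied to thinned cells (log2 fold -0.58). Id2, a BMP target, rose (111 and 116 against 178 and 223 CPM, log2 fold 0.83), and Id1 and Id3 were not called. Tgfb1 (35.3 and 35.9 against 6.10 and 7.12 CPM) fell by 2.39, and its mean in other cells was 105 CPM.

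Hox genes carry positional identity along the trunk. Of 25 tested 5 rose and none fell, with a list median of 0.42. Over all tested genes 3.63% were called higher and 5.21% lower, with a median of 0.00. The 25 genes summed to 862 and 908 CPM in MMPlow members and 1231 and 1199 CPM in MMPhigh members. In the other cells of those libraries the sums were 331 and 311 against 1249 and 1342 CPM, and the part of their RNA in the members' rise was not tested. Hoxc5 stood at 39.6 and 35.9 CPM in MMPlow 1 and 2 and 89.01 and 81.5 CPM in MMPhigh 1 and 2 (log2 fold 1.18, SE 0.17, edgeR adjusted p = 0.000127) and kept its call under all 20 settings. Hoxc10, a gene of the lumbar trunk and hindlimb, stood at 37.7 and 46.1 CPM in MMPlow 1 and 2 and 104 and 91.2 CPM in MMPhigh 1 and 2 (log2 fold 1.20, SE 0.17, edgeR adjusted p = 0.000108), and Hoxc9 at 40.2 and 29.3 CPM in MMPlow 1 and 2 and 93.3 and 72.1 CPM in MMPhigh 1 and 2 (log2 fold 1.26, SE 0.20, edgeR adjusted p = 0.000339). In each the MMPhigh libraries lay above the MMPlow libraries. Hoxa10 and Hoxd11 rose by log2 folds of 1.35 and 1.44. Hoxd11 lost its call without MMPlow 1 and by DESeq2, Hoxc9 with the rule on thinned cells, and Hoxa10 and Hoxc10 with members thinned. Hoxc6, between Hoxc5 and Hoxc8 in the same cluster, was not called at 80.3 and 69.6 against 84.7 and 74.1 CPM, and Hoxc4 was not at 71.2 and 76.2 against 80.5 and 74.7 CPM. Neighbouring Hox genes can share transcripts, so reads of Hoxc4, Hoxc5 and Hoxc6 may be split between them by the counting.

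**Figure D4:**
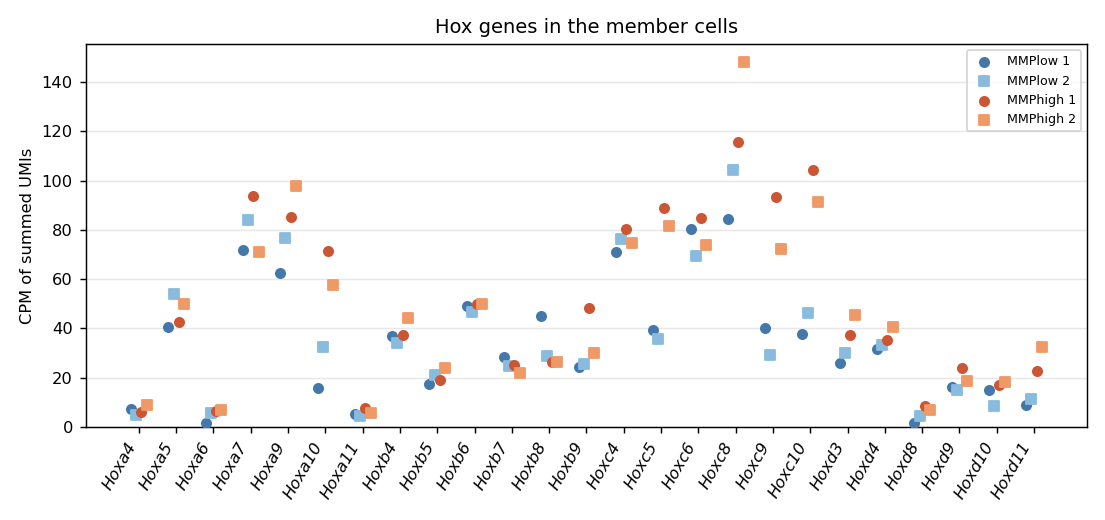
Levels of 25 Hox genes in member cells (vertical axis, CPM of summed UMIs), with 1 point per library. Hoxa10, Hoxc5, Hoxc9, Hoxc10 and Hoxd11 lie higher in both MMPhigh libraries. Of the 25 genes 7 overlap between fractions and 18 do not, beside 51.0% of all tested genes that do not.

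Nr2f1, a nuclear receptor, stood at 52.9 and 63.4 CPM in MMPlow 1 and 2 and 168 and 185 CPM in MMPhigh 1 and 2 (log2 fold 1.60, SE 0.15, edgeR adjusted p = 1.15e-06), with 22.3 and 23.2 CPM in other MMPlow cells and 99.6 and 118 CPM in other MMPhigh cells. Prrx1, a factor of limb and body wall mesenchyme, stood at 125 and 148 CPM in MMPlow 1 and 2 and 257 and 365 CPM in MMPhigh 1 and 2 (log2 fold 1.20, SE 0.16, edgeR adjusted p = 0.000191). Neither gene overlapped between fractions. Nr2f1 kept its call under all 20 settings, whereas Prrx1 lost it at a marker sum of at least 20 per 10000 UMIs and with the rule on thinned cells. Pitx1, a hindlimb factor (21.3 and 14.6 against 49.99 and 53.4 CPM, log2 fold 1.57), and Emx2, a factor of urogenital and scapular mesenchyme (18.3 and 15.5 against 51.8 and 44.6 CPM, 1.52), rose too. Emx2os, antisense to Emx2, rose by 2.18, but reads of the pair may not be told apart. Dlk1, an imprinted growth regulator, stood at 117 and 131 against 248 and 245 CPM (log2 fold 0.99). Of 9 tested genes of fibroblastic mesenchyme, Prrx1, Dlk1 and Dcn rose and none fell, and of 4 mesothelial and gonadal genes Gata4, Lhx9 and Emx2 rose. Dcn lost its call in 10 of 20 settings and had a log2 fold of -0.06 with the rule on thinned cells, and Lhx9 lost its call in 11 of 16, including each that left out 1 library. Gata4 lost its call in 5 of 15, including those without MMPlow 1, MMPlow 2 or MMPhigh 2. Emx2 lost its call in 4 of 20, including the rule on thinned cells and that without members with an endothelial gene. Among the few tested genes of other tissues, the muscle gene Des and the surface antigen gene Cd24a rose.

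Epha3, an ephrin receptor, stood at 190.4 and 193 CPM in MMPlow 1 and 2 and 463 and 729 CPM in MMPhigh 1 and 2 (log2 fold 1.65, SE 0.19, edgeR adjusted p = 0.000326), while without members that had an endothelial gene the fold was 1.53 (edgeR adjusted p = 0.123). Ccn1, a matricellular protein, stood at 24.3 and 20.8 CPM in MMPlow 1 and 2 and 58.5 and 83.1 CPM in MMPhigh 1 and 2 (log2 fold 1.70, SE 0.21, edgeR adjusted p = 2.92e-05). Jun, an immediate early factor, stood at 91.9 and 86.4 CPM in MMPlow 1 and 2 and 242 and 308 CPM in MMPhigh 1 and 2 (log2 fold 1.64, SE 0.15, edgeR adjusted p = 7.28e-07), and its partners Fos and Fosb each had 1 UMI in MMPlow members against 154 and 176 in MMPhigh members, ratios of 127 and 145 with exact 95% counting intervals of 22.4 to 5044.9 and 25.7 to 5761. In all these genes the fractions lay apart, which was a condition of choice for genes named by fold. Jun and Ccn1 were not called with the rule on thinned cells, at log2 folds of 1.29 and 1.57. Ccn1 also lost its call with members thinned. Egr1 and Klf6 also rose, and 8 of the 13 tested genes of that list were not called. Klf6 lost its call in 9 of 20 settings, including those without MMPlow 1, MMPlow 2 or MMPhigh 2, and Egr1 in 4 of 18. In the other cells the list summed to 1364.5 and 1506 CPM in the MMPlow and to 2479.8 and 2593 CPM in the MMPhigh libraries, and in members to 1352 and 1324 against 1849.6 and 1842 CPM.

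Neuronal transcripts rose as well, and they were plentiful in the other MMPhigh cells. Cadps, Nefl, Ctnna2 and Tubb2b rose by log2 folds of 2.29, 2.11, 1.79 and 1.60. Ctnna2 stood at 68.1 and 61.6 CPM in MMPlow 1 and 2 and 204 and 237 CPM in MMPhigh 1 and 2 in members and at 76.98, 79.7, 663 and 888 CPM in the other cells of those libraries. All 4 tested neuronal markers outside the rule rose; these 4 genes summed to 57.2, 53.6, 104 and 158 CPM in members and to 128, 120.2, 1083 and 1272 CPM in other cells. The neuronal genes of the rule had left out 0, 5, 8 and 31 cells. All 4 lost their call without MMPlow 2, and Dcx, Nefm and Map2 also without MMPlow 1; in all, Dcx lost it in 11 of 14 settings, Nefm in 12 of 20, Map2 in 6 of 20 and Nefl in 5 of 20. Cadps, Ctnna2 and Tubb2b each lost theirs with the rule on thinned cells alone, where their log2 folds were larger, at 5.12, 3.08 and 2.78. That setting also counted the endothelial and neuronal exclusion genes on thinned cells, so its members are not the same set of cells. The part in these folds of cells that the full rule leaves out was not tested. Of 4 tested glial and neural crest markers, 2 rose, and Sox10 stood at 5.48 and 0.886 against 15.2 and 14.2 CPM, with its call lost in 3 of 16 settings, including that without MMPlow 2. In other cells the 8 listed genes went the opposite way, with sums of 284 and 265 CPM in the MMPlow and 85.0 and 80.95 CPM in the MMPhigh libraries. Of 4 tested neural progenitor genes none was called by edgeR. The part of RNA from neurons in the rise of the neuronal genes was not tested; the members with at least 2 neural progenitor or glial markers numbered 2, 1, 2 and 4.

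The sort was on mitochondrial activity. In the median member, transcripts encoded in mitochondria made up 2.50% and 2.94% of UMIs in the MMPlow libraries and 3.26% and 3.72% in the MMPhigh libraries. The difference was 0.767 percentage points, the fractions did not overlap, and an exact permutation test (two-sided) gave 0.3333, as low as this design can go. In all other filtered cells the medians went the other way, at 4.15% and 4.43% in MMPlow and 3.30% and 3.65% in MMPhigh. Endothelial cells without any gene of the rule stood at 3.84% and 4.30% against 3.77% and 3.58%. Fibroblastic mesenchyme went with the members, at 2.80% and 3.58% against 3.70% and 3.65%. Of the genes encoded in mitochondria, mt-Atp6 (log2 fold 0.66) and mt-Co3 (0.53) rose in members, mt-Nd6 fell by 0.80, and 10 were not called. Of 20 settings mt-Atp6 lost its call in 3, mt-Co3 in 8 and mt-Nd6 in 5; mt-Atp6 and mt-Co3 lost it without MMPlow 1 and without MMPlow 2. Of 74 nuclear genes of oxidative phosphorylation edgeR called 0, with a list median of -0.12. Of 23 tested glycolysis and hypoxia genes Gapdh and Eno1 rose, and the glucose transporter Slc2a1 (45.03 and 43.9 against 24.995 and 19.4 CPM) and the oxygen sensor Egln3 fell. Of the alternative settings, Gapdh lost its call in 10 of 20, Eno1 in 13 of 20 and Egln3 in 11 of 19, each including that without MMPlow 1, and Slc2a1 in 4 of 20, including that without MMPlow 2. Of 48 cell cycle genes 1 was called, Ccne2, which fell by 0.84 and lost its call in 9 of 20 settings, including those without MMPlow 1 or MMPhigh 2. Mki67 was not called at 326 and 354 against 413 and 399 CPM, nor was Top2a at 626 and 599 against 615 and 566 CPM.

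The fractions were also compared within fibroblastic mesenchyme, a set of related cells. These cells were not members, passed the same exclusions, and had at least 3 of Pdgfra, Col1a1, Col1a2, Col3a1, Prrx1 and Twist1 with a sum of at least 10 per 10000 UMIs. In that set 426 of the 600 genes lower in members were also called lower, and 180 of the 418 higher genes were also called higher. Over all 11517 genes tested in members, 1157 were called in that set with the same sign as in members. The difference between the 2 sets in the fold between fractions was tested in 1 edgeR model; 87 of 12944 genes differed (0.672%), 68 with a larger and 19 with a smaller fold in members. Prdm16, a chromatin regulator, stood at 39.6 and 46.98 CPM in MMPlow 1 and 2 and 77.4 and 93.2 CPM in MMPhigh 1 and 2 in members, a log2 fold of 0.99 against -0.72 in fibroblastic mesenchyme, a difference of 1.69 (SE 0.20, edgeR adjusted p = 0.000524). Both MMPhigh libraries lay above both MMPlow libraries in members, as the choice of these genes required. Meis1, a Hox cofactor, rose by 0.83 in members against 0.15 (difference 0.67, adjusted p = 0.00153). Tnc fell by 1.58 in members against a fold of 0.03 (difference -1.59, adjusted p = 0.0169). Without MMPlow 1 or without MMPlow 2 no gene passed (0 by edgeR, with 625 and 615 at an unadjusted p under 0.05), and without MMPhigh 1 or MMPhigh 2 it was 568 and 436.

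**Figure D5:**
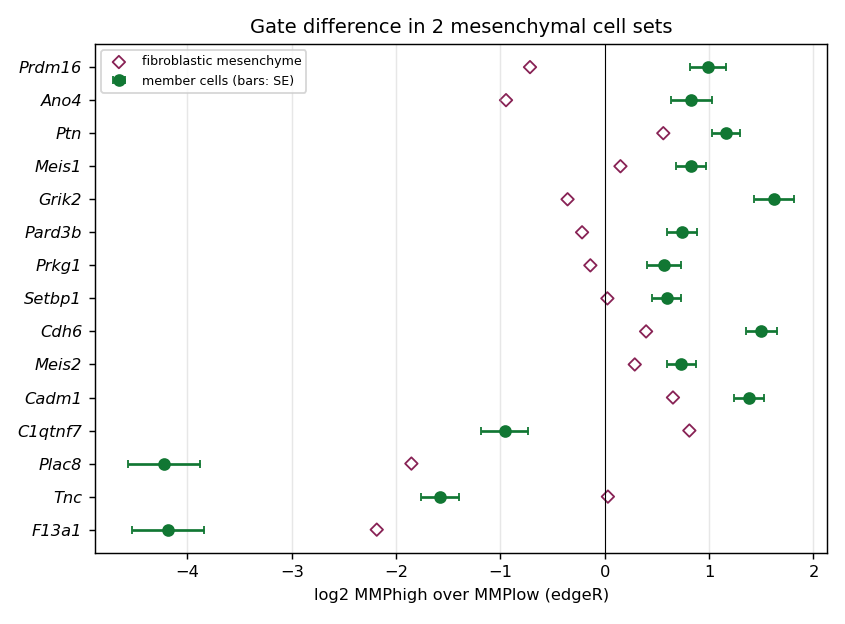
Log2 MMPhigh over MMPlow for 15 genes whose fold differed between member cells (filled green, bars are SE) and fibroblastic mesenchyme (open diamonds). Prdm16, Ano4, Grik2, Pard3b and Prkg1 lie right of 0 in members and left of 0 in fibroblastic mesenchyme, and C1qtnf7 the reverse.

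Members were not uniform. In 77, 91, 36 and 43 members of MMPlow 1, MMPlow 2, MMPhigh 1 and MMPhigh 2 (21.2%, 21.0%, 38.7% and 31.6%), Col25a1 UMIs outnumbered those of the other 5 genes of the rule together. This division was made after the values were seen and is described with no test. The Col25a1-led cells held more Igfbp5 (458.5, 409, 674 and 567 CPM, against 93.4, 119, 206 and 163 in the other members) and more Tbx3 (89.6, 53.0, 74.8 and 84.2, against 17.4, 13.7, 23.9 and 26.2). They also held more Scx, the tendon progenitor factor, at 71.1, 72.7, 61.7 and 30.8 against 29.3, 28.0, 29.6 and 17.6 CPM. They held less Sox6 (108, 175, 144 and 151 against 369, 377, 349.6 and 399 CPM) and less Foxc1 (34.3, 21.6, 22.3 and 26.3 against 63.3, 63.0, 110.5 and 88.1). Each of these 5 genes kept its direction in every library. Igfbp5, Tbx3, Sox6 and Foxc1 came from ranked sets in which every listed gene did so, and this gives them no further support. Across single cells of a library, Col2a1 and Sox6 had Spearman correlations of 0.372, 0.355, 0.465 and 0.484, given as descriptions over cells that share a library. Those of Col2a1 and Col25a1 were -0.438, -0.301, -0.395 and -0.582. The rule sums both genes, and its part in the negative sign was not tested.

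Pax1 or Pax9 UMIs were found in 42.7%, 42.0%, 55.9% and 54.4% of members, with depth differing as above. Members with one of them held more Foxc1, a sclerotome factor, at 76.0, 71.0, 95.1 and 91.9 CPM, against 39.8, 38.0, 33.6 and 31.6 in members with neither. They held more Ptch1, at 261, 267, 316 and 254 CPM against 181, 193, 142 and 175, and more Gli1, at 31.4, 27.1, 20.9 and 18.2 against 18.2, 14.3, 7.31 and 9.78. All 3 genes were higher in the Pax1- or Pax9-positive members of every library. Sox10, the glial factor, was lower in them, at 1.31 CPM in MMPlow 1 and 0 in the other libraries against 9.09, 1.69, 36.6 and 33.1.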

How the data were processed

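The deposited matrices hold raw UMI counts per gene and barcode. Per the file headers they were made with Cell Ranger 7.0.1, while the submitters' processing notes name Cell Ranger 2.1.1 and mm10; the annotation is not given in the sources used here. Gene coordinates are from GENCODE vM21 (GRCm38). Members and gene lists were chosen with earlier results of these data known. UMIs were summed per library over members and tested with edgeR 4.0.16 in R 4.3.3 (TMM, filterByExpr, robust quasi-likelihood F-test, two-sided, Benjamini-Hochberg at 0.05); SE is the size of the log2 fold over the square root of F. On simulated counts for this comparison (11192 genes) 96% of the genes given a log2 change of 1 were called, and 100% of those given 2. The changed genes were drawn from those at 50 CPM or more, and all genes shared 1 dispersion of 0.0107. These shares therefore do not cover genes at lower levels or genes that vary more between libraries. Named genes were up to 12 per direction with the largest fold, at a mean of at least 20 CPM, with groups not overlapping and the same direction with each library left out, predicted genes left out; the 30 leading genes by ratio to other cells (10 CPM added, at least 50 CPM in members); and, per list, called genes and the 3 with the highest levels. Other genes given as not called were chosen after their values were seen. Results for some genes that the rule names are not reported here. Doublets were scored with Scrublet in scanpy 1.11.5, which called 2, 996, 0 and 68 cells in MMPlow 1, MMPlow 2, MMPhigh 1 and MMPhigh 2; it did not work in MMPlow 1 and MMPhigh 1, so none were removed and the 6% highest scores were left out as an alternative. Alternatives also changed the rule, the depth, the normalization, the filter and the libraries used, and DESeq2 1.42.0 was run.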

Additional observations from a re-analysis of the deposited data

Results flagged for a closer look

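For 15 genes, taken from those called in members in the same direction at a mean of at least 20 CPM, the difference between fractions in member cells was unlike that in fibroblastic mesenchyme by the edgeR test of the difference itself. The values are log2 folds in members minus those in fibroblastic mesenchyme. They were 1.69 for Prdm16, 1.77 for Ano4, 0.58 for Ptn, a heparin-binding growth factor, and 0.67 for Meis1. They were 2.02 for Grik2, 0.93 for Pard3b, 0.67 for Prkg1, 0.55 for Setbp1, 1.09 for the cadherin Cdh6, 0.43 for Meis2 and 0.71 for Cadm1. Negative values were found for C1qtnf7 (-1.82), Plac8 (-2.34), Tnc (-1.59) and F13a1 (-2.10). The edgeR adjusted p lay between 0.000524 (Prdm16) and 0.0271 (F13a1), and no gene passed without MMPlow 1 or without MMPlow 2. Without the members with neural progenitor or glial markers, Cdh6 was not called between fractions in members. Of the 20 settings for the difference between fractions in members, Prkg1 lost its call in 13, Ano4 and C1qtnf7 in 7 each, Cdh6 in 5 and the others in 0 to 4. Grik2, Plac8 and F13a1 were below the other cells of each library in members of every library, at 38.3 and 42.1 CPM for Plac8 in MMPlow members and 63.6 and 85.0 CPM in the other MMPlow cells. Grik2 stood at 32.2, 28.4, 108 and 79.9 CPM in members and at 61.6, 69.3, 173 and 208 CPM in other cells, and its log2 fold in members went from 1.62 to 0.89 without those with neural progenitor or glial markers.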

How the results depend on the processing

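The share of members was 0.814 points higher in MMPhigh as reported. The difference turned negative at a marker sum of at least 20 per 10000 UMIs (-0.0630) and with the rule on thinned cells (-0.0740). As a share of cells that were not endothelial it was -1.70. It was larger at a marker sum of at least 5 (1.88), without members with any endothelial gene (1.56) and with at least 4 markers (1.20). Leaving out 1 library gave -0.0804 to 1.71. The difference in median mitochondrial share stayed positive under all alternatives run, from 0.535 to 0.998 with 1 library left out, 1.55 at 5000 or more UMIs per cell and 1.17 with at least 4 markers. The count of called genes, 1018, was 437 at a marker sum of at least 20, 484 with the rule on thinned cells, 466 without members with any endothelial gene, 184 with members thinned, 411 by DESeq2 and 369 to 1518 with 1 library left out, where the lone library is assumed to vary like the others. At 5000 UMIs or more per cell, 366 genes were higher and 327 lower, against 418 and 600. The differences of fold from fibroblastic mesenchyme, 87, were 0 to 568 with 1 library left out. Detection without thinning turned the MMPhigh minus MMPlow difference in percentage points from -12.2 to 2.11 for Col2a1, from -8.96 to 7.02 for Col9a1, from -22.3 to 7.05 for Col11a1 and from -3.06 to 12.8 for Pax1, and moved it from 5.09 to 10.7 for Col25a1 and from 3.19 to 22.2 for Sox9. Of 121 named genes 26 kept their call wherever a value was given; the sign turned for Cdh6 (-0.100) and Grik2 (-0.0868) at a marker sum of at least 20 and for Dcn (-0.0641) with the rule on thinned cells. The cause was not tested. The deviations of same-numbered libraries from the mean of their fraction had a correlation of 0.0509 over 7463 genes. With 2 libraries per fraction, differently numbered pairs must give the same size with a negative sign. A replicate block gave 864 calls. Settings that thin members, or leave out members with macrophage or endothelial genes, were chosen after seeing the data.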

Other observations

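Genes of limb and body wall mesenchyme, listed after the values were seen, varied among the libraries of member cells. Tbx15, a factor of limb and trunk mesenchyme, stood at 40.8 and 53.6 CPM in MMPlow members and at 79.3 and 144 CPM in MMPhigh members. Shox2, a factor of proximal limb cartilage, stood at 10.95 and 28.8 and at 12.2 and 58.5 CPM, with overlapping fractions. Tbx4, the hindlimb factor, stood at 11.6 and 6.21 and at 6.71 and 23.0 CPM, and Tbx5, the forelimb factor, at 3.04, 0.886, 3.66 and 5.18 CPM against a mean of 26.7 CPM in fibroblastic mesenchyme. The MMPhigh 2 library held the highest level of all 4 genes.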
